A study of Arabidopsis thaliana with 6 samples.

Results

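The histone H4 genes and the H2B gene HTB4 were followed in whole seedlings of Arabidopsis thaliana through the probe sets that the platform annotation gives to these genes and to no other gene. These are 9 of the 14265 genes named on the array, and of its 22810 probe sets 6 met the rule, 5 for H4 and 1 for HTB4. The 5 H4 probe sets are each annotated to the same 8 genes, AT1G07660, AT1G07820, AT3G45930, AT3G46320, AT3G53730, AT5G59690, AT5G59970 and HIS4 (AT2G28740). A value of an H4 probe set therefore belongs to the H4 family and cannot be given to 1 of its genes. By the naming convention of the manufacturer, the ending _s_at marks a probe set whose probes are shared by several transcripts, and 3 of the 5 H4 probe sets carry it. The other 2 H4 probe sets and that of HTB4 (AT5G59910) end in _at.

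Seedlings of 9 days came from wild-type Col-0 plants or from the myb3r1 myb3r4 double mutant, also labelled Col-0. The mutated genes encode related MYB transcription factors, which bind the promoters of many genes needed for mitosis and for building the cell plate. The labels name no alleles. No agent was given, and both genotypes were kept at 22 degrees Celsius under constant light on agar with half-strength MS and 2% sucrose. Each of 3 experimental sets held 1 array of each genotype, which makes 6 arrays in all. Whether a set was a culture of its own is not stated in the labels, so p-values speak only for the spread among these arrays, part of which may be technical.

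Histone H4 pairs with H3 to form the tetramer at the centre of the nucleosome, and dimers of H2A and H2B flank it. Genes of the replication-dependent core histones are switched on as cells enter S phase, when new DNA has to be packed. In plants their mRNAs carry poly(A) tails, which the oligo(dT) labelling of these arrays needs. In a seedling these transcripts are therefore known as marks of dividing tissue, such as the root and shoot meristems and young leaves, and also of cells that replicate DNA without dividing.

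The H4 and H2B genes also lie near each other in the genome. In the RefSeq gene order of assembly TAIR10.1, every one of the 8 H4 genes has an H2B gene on the same chromosome with at most 50 protein-coding genes between them, and for 5 of the 8 it is at most 10. How many of all protein-coding genes lie as near to an H2B gene was not counted. HIS4 on chromosome 2 is separated from the H2B gene AT2G28720 by 1 gene. AT1G07820 is separated from HTB1 by 2 genes, AT3G45930 from HTB9 by 4 and AT3G53730 from AT3G53650 by 6. HTB4 on chromosome 5 has 5 genes between it and AT5G59970 and 24 between it and AT5G59690.

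Every level below is a log2 signal over the median of its own array, so that 0 marks a probe set of median brightness. Differences are double mutant minus wild type on the log2 scale, fitted in limma with the experimental set as a block. All 6 probe sets were among the brightest 60% of probe sets, the 13648 that were tested. P-values were adjusted by Benjamini-Hochberg over all 13648. Each genotype had 3 arrays, and the fitted differences of the 6 probe sets are given with their SE and 95% interval.

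No H4 or HTB4 probe set passed an adjusted p of 0.05 in limma, although the fitted difference was above 0 in all 6 (in 4 after quantile normalization and in 5 without the division by the array median). Over all tested probe sets 72 passed, or 0.528%, and 58.3% had a difference above 0. At an unadjusted p under 0.05 there were 2 of the 6, both higher in the mutant, beside 17.4% of all tested probe sets in either direction and 12.6% in that direction. The differences ran from 0.06 to 0.50, with a median of 0.24 over the 5 H4 probe sets, and the median over all tested probe sets was 0.058; after quantile normalization they were 0.02 and -0.011. In RNA of whole seedlings a difference in the number of cells that express these genes and a difference in transcript per cell cannot be told apart.

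The H4 probe set 252562_s_at had the largest difference of the family. In sets 1 to 3 its level was 2.59, 2.93 and 3.35 for wild type and 3.03, 3.63 and 3.73 for the mutant. The mutant array was the higher one in each set, while the genotypes overlapped because mutant set 1 lay below wild-type set 3. The means were 2.96 ± 0.38 and 3.46 ± 0.38 (SD, n = 3 each). The fitted difference was 0.50 (SE 0.15, 95% interval 0.17 to 0.83), which is 1.42-fold, with a limma adjusted p of 0.171. The differences in sets 1 to 3 were 0.44, 0.69 and 0.37.

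The H4 probe set 266226_at spread most between sets. Its wild-type levels were 1.23, 2.26 and 2.73 in sets 1 to 3, and its mutant levels 1.72, 2.82 and 2.72. Sets 1 and 2 had the higher value in the mutant, and in set 3 the arrays differed by only 0.02, with wild type the higher. The fitted difference was 0.34 (SE 0.16, 95% interval -0.03 to 0.72, limma adjusted p = 0.317). The SD over the wild-type arrays was 0.77 and over the mutant arrays 0.61. Both hold the spread between sets, which the block takes out of the SE of the difference.

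The remaining H4 probe sets had smaller differences. Probe set 251924_at had levels of 3.48, 4.35 and 4.27 in wild type and 4.12, 4.32 and 4.38 in the mutant. Wild-type set 1 stood low and the other 5 arrays lay within 4.12 to 4.38. The fitted difference was 0.24 (SE 0.17, 95% interval -0.14 to 0.62, limma adjusted p = 0.467), and 0.04 without set 1.

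Probe set 247692_s_at had levels of 4.99, 5.65 and 5.69 in wild type and 5.46, 5.60 and 5.65 in the mutant. Here too wild-type set 1 stood apart, and in sets 2 and 3 the mutant was lower by 0.05 and 0.03. Its fitted difference of 0.13 (SE 0.15, 95% interval -0.22 to 0.47, limma adjusted p = 0.682) was -0.04 without set 1.

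Probe set 261408_s_at had levels of 2.97, 3.86 and 3.81 in wild type and 3.15, 3.90 and 3.76 in the mutant. Both arrays of set 1 stood low, and within each set the genotypes lay close together. The difference was 0.06 (SE 0.14, 95% interval -0.26 to 0.38, limma adjusted p = 0.856). Its interval overlapped that of 252562_s_at, 0.17 to 0.83. These are the H4 probe sets with the smallest and the largest difference, set against each other after their values were seen. Their mutant minus wild-type differences lay 0.26, 0.65 and 0.42 apart in sets 1 to 3. Probe sets annotated to the same 8 genes thus had fitted differences from 0.06 to 0.50 on the same arrays, and whether they differ was not tested.

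HTB4, an H2B gene, had levels of 4.09, 4.29 and 4.62 in wild type and 4.34, 5.11 and 4.89 in the mutant. The mutant array was the higher one in every set, and the genotypes overlapped in that mutant set 1 lay below wild-type set 3. The fitted difference was 0.45 (SE 0.16, 95% interval 0.08 to 0.81), or 1.36-fold with an interval of 1.06 to 1.75, and the limma adjusted p was 0.219. Set 2 carried the largest part, with differences of 0.25, 0.82 and 0.27 in sets 1 to 3, and without set 2 the difference was 0.26.

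**Figure D1:**
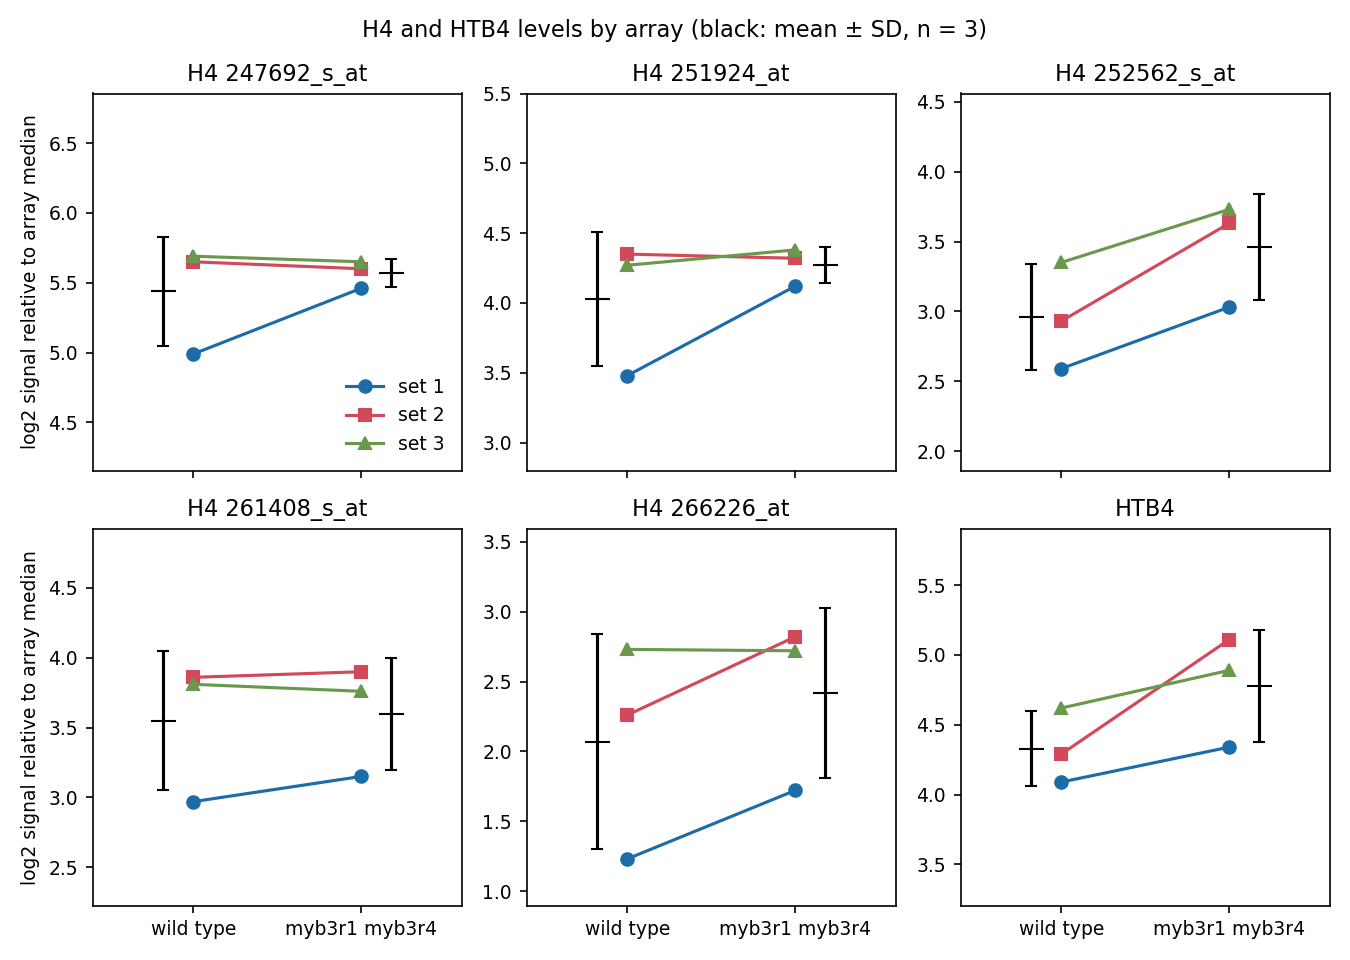
Log2 signal relative to the array median (vertical axis, 2.7 log2 units in every panel) of the 5 H4 probe sets and HTB4 in wild type and myb3r1 myb3r4; coloured lines join the 2 arrays of each set, and black marks give the mean ± SD (n = 3). Set 1 is the lowest line in every panel, and only 252562_s_at and HTB4 climb from wild type to mutant in all 3 sets.

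Read over the family, 2 of the 6 probe sets, 252562_s_at and HTB4, were higher in the mutant in all 3 sets, as were 26.3% of all tested probe sets. In none of the 6 did every mutant array lie above every wild-type array, which held for 8.15% of all tested probe sets. All 5 H4 probe sets were higher in the mutant in set 1, 3 of the 5 in set 2 and 2 in set 3, where 58.5%, 53.2% and 56.4% of all tested probe sets were. The median H4 difference was accordingly 0.47, 0.04 and -0.02 in the 3 sets, while the median over all tested probe sets stayed at 0.06, 0.04 and 0.05. Without set 1 the H4 median was 0.041 and that of all tested probe sets 0.040.

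These transcripts also differed between the experimental sets, by more than between the genotypes in each of the 6 as fitted. In all 6 probe sets set 1 was the lowest of the 3 sets in both genotypes, which held for 24.9% of all tested probe sets. Taking the mean of sets 2 and 3 minus set 1 over both genotypes, a contrast chosen after seeing the data, 3 of the 6 passed in limma, all higher in sets 2 and 3, beside 7.44% of all tested probe sets in that direction. The H4 probe sets 266226_at, 261408_s_at and 252562_s_at differed by 1.16, 0.77 and 0.60 (adjusted p = 0.00542, 0.0124 and 0.0314, limma). The other H4 probe sets, 251924_at and 247692_s_at, had values of 0.53 and 0.42, and HTB4 0.51 (adjusted p = 0.0694, 0.0982 and 0.0677, limma). All 6 passed after quantile normalization, and 5 did on signals that were not divided by the array median. The count stayed at 3 with no filter, among the brightest 40%, with an offset before the log and without the eBayes trend. How many of all tested probe sets passed under these settings was not counted, so the member counts there have no background.

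A sign of RNA quality moved with the sets. The mean 3′ minus 5′ log2 signal of 6 pairs of actin, GAPDH and ubiquitin control probe sets, which grows as the 5′ parts of transcripts are lost from the labelled RNA, stood at 1.07, 3.04 and 3.22 for wild type and at 1.5, 1.92 and 2.44 for the mutant in sets 1 to 3. The mean level of the 5 H4 probe sets was 3.05, 3.81 and 3.97 in the same wild-type arrays and 3.50, 4.05 and 4.05 in the mutant arrays. Between the genotypes the control signal differed, mutant minus wild type, by 0.44, -1.12 and -0.78 in sets 1 to 3. The median H4 difference in these sets was 0.47, 0.04 and -0.02. The largest difference came in set 2 for HTB4 (0.82) and for the H4 probe sets 252562_s_at (0.69) and 266226_at (0.56). It came in set 1 for 247692_s_at, 251924_at and 261408_s_at. With the control signal as a covariate, a fit that leaves 1 residual degree of freedom, the H4 median was 0.38 in place of 0.24. The HTB4 difference was 0.31 in that fit (SE 0.15, limma adjusted p = 0.366). The part of RNA quality in the set and genotype differences was not tested beyond this.

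**Figure D2:**
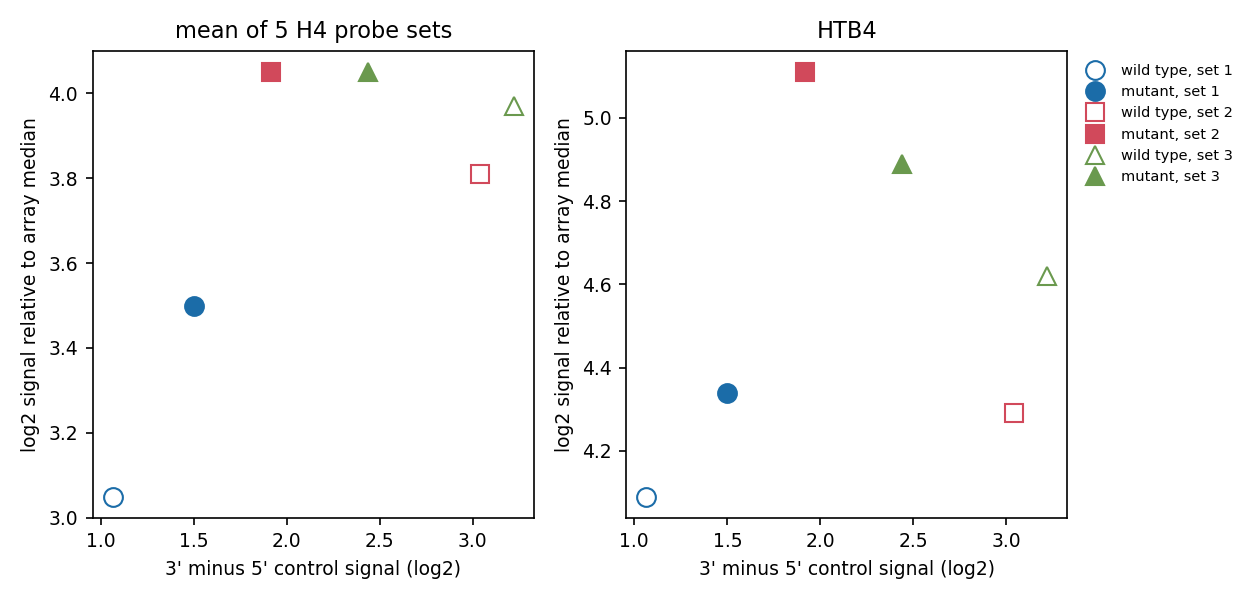
Level of H4 (left, mean of 5 probe sets) and HTB4 (right), as log2 signal relative to the array median, against the mean 3′ minus 5′ log2 signal of 6 control pairs; each of the 6 points is 1 array, open for wild type and filled for the mutant. The wild-type array of set 1 has the lowest control signal, 1.07, and the lowest level in both panels, and the wild-type arrays of sets 2 and 3 have the highest control signals, 3.04 and 3.22, without the highest levels.

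The H4 probe sets also differed in how closely they followed each other. Likeness was measured as the root mean square difference over the 6 arrays after each probe set was centred on its own mean. The closest pair was 247692_s_at and 251924_at, at 0.08, and the farthest H4 pair was 247692_s_at and 266226_at, at 0.39. HTB4 was 0.12 from 252562_s_at and 0.28 to 0.34 from the other 4. By this measure the H2B gene lay nearer to that H4 probe set than any other H4 probe set did, the nearest of which was at 0.25. Some genes outside the histone lists lay nearer still to HTB4, such as INH3 at 0.061.

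Other core histones were listed by family to set beside H4 and HTB4. The lists were chosen with earlier results of these data known. No listed H2A gene had a named probe set, so the partner of H2B in the nucleosome was not measured under a name here. None of the listed histone probe sets passed in limma, where the background is the same 72 of 13648 probe sets, 0.528%. The other counts that follow have other backgrounds among all tested probe sets. A difference above 0 was seen in 58.3%, an unadjusted p under 0.05 in limma in 17.4%, and set 1 lowest in both genotypes in 24.9%.

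Of the other H2B genes 6 of 8 probe sets were tested, and all 6 had a difference above 0, with a median of 0.22 and 1 at an unadjusted p under 0.05. The levels of HTB2 were 2.08, 3.17 and 3.1 in wild type and 2.61, 3.49 and 3.47 in the mutant, a difference of 0.41 (SE 0.14, limma adjusted p = 0.215). HTB11 and HTB1 differed by 0.21 (SE 0.15) and 0.17 (SE 0.16). Set 1 was the lowest in both genotypes in 5 of these 6, as it was for HTB4.

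For H3.1, the H3 form that is laid down during replication, all 5 probe sets were tested and all had a difference above 0. The median was 0.29 and the range 0.07 to 0.48, and 2 had an unadjusted p under 0.05 in limma. Like those of H4, they are annotated to several near-identical genes. The 3 brightest, 247192_at, 264262_at and 250434_at, differed by 0.07, 0.29 and 0.19 (SE 0.14 each). In 3 of the 5 every mutant array lay above every wild-type array, which was seen in 0 of the 5 H4 probe sets and in 8.15% of all tested probe sets. The median H3.1 difference was 0.17, 0.43 and 0.27 in sets 1 to 3, where that of H4 was 0.47, 0.04 and -0.02. Whether the families differ was not tested.

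The H3.3 genes encode the replacement form of H3, which is made and laid down also outside S phase. All 3 of their probe sets had a difference above 0, with a median of 0.34 and a range of 0.31 to 0.48. An unadjusted p under 0.05 in limma was seen in 2 of the 3. Probe set 252824_at had levels of 5.10, 4.64 and 4.60 in wild type and 5.43, 5.25 and 5.11 in the mutant, so that every mutant array was above every wild-type array. Its difference was 0.48 (SE 0.14, limma adjusted p = 0.163), and those of 250397_at and 252849_at were 0.34 (SE 0.14) and 0.31 (SE 0.15). Unlike the H4 and HTB4 probe sets and 4 of the 5 of H3.1, none of the 3 was lowest in set 1 in both genotypes. The replacement form had differences of about the size of HTB4 without the low set 1.

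HTR12, the centromeric form of H3, differed by -0.06 (SE 0.22, limma adjusted p = 0.911), and the other 5 probe sets of H3 variants were too dim to be tested. The 2 tested probe sets of linker histone H1 differed by -0.02 and 0.17.

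**Figure D3:**
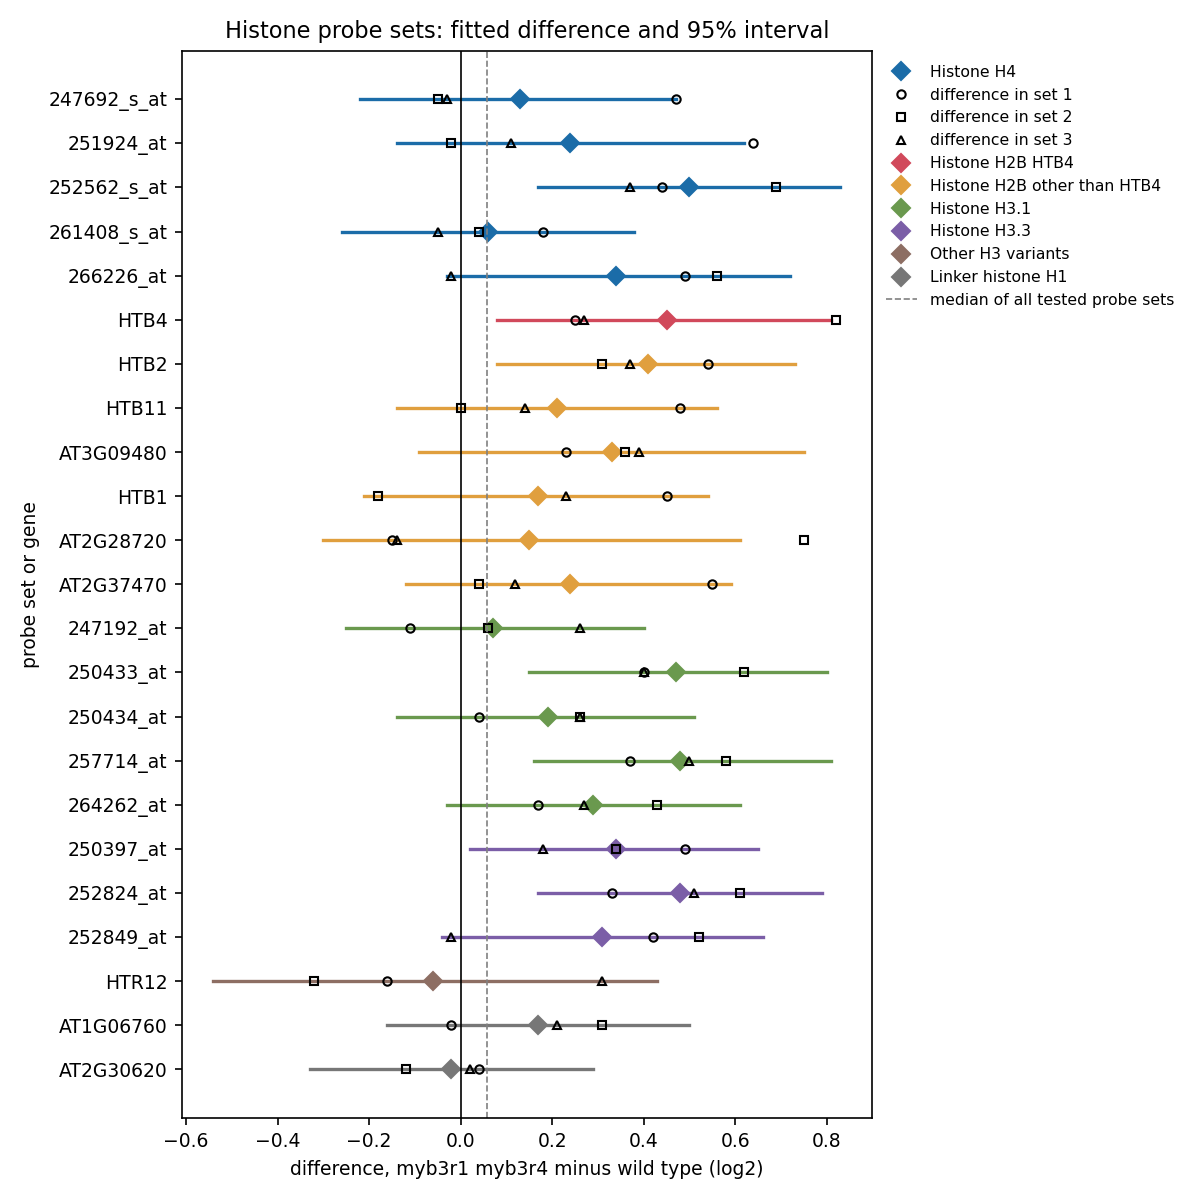
Fitted difference, myb3r1 myb3r4 minus wild type on the log2 scale (diamonds), with its 95% interval (bars) for every tested histone probe set, coloured by family; open symbols are the differences in sets 1 to 3 and the dashed line marks 0.058, the median over everything tested. The H4 and HTB4 differences, 0.06 to 0.50, lie in the same range as those of the other H2B, H3.1 and H3.3 probe sets, and the H4 set 1 differences lie to the right of those of set 3 in all 5.

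Genes that act with histones in S phase had few named probe sets. Of 13 histone chaperone genes 2 had one. ASF1B, which hands H3 and H4 to the assembly machinery, differed by -0.33 (SE 0.17, limma adjusted p = 0.352), and its relative SGA2 (ASF1A) by 0.18 (SE 0.16). The levels of ASF1B were 0.99, 1.92 and 1.75 in wild type and 1.04, 1.23 and 1.42 in the mutant, with set 1 the lowest in both genotypes as for H4, but with the mutant below wild type in sets 2 and 3. Of 15 replication genes only PRL, a subunit of the replicative helicase, was named, at -0.06 (SE 0.14). The single named one of 9 mitotic markers, AUR1 (an Aurora kinase gene), differed by 0.28 (SE 0.18). None of these genes passed in limma.

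Markers of leaf and root were present in every array. The 2 named leaf genes, RCA and PRK, which encode enzymes of carbon fixation, had wild-type means of 6.46 and 5.40 and differed by 0.36 and 0.33. The 5 named root genes had wild-type means from 1.34 to 5.88, and 4 of the 5 had a difference above 0, beside 58.3% of all tested probe sets. Their differences were unlike, from -0.14 for AT5G17820 to 1.03 for JAL33, with a median of 0.33. None of these passed in limma, and the part of tissue proportions in the H4 and HTB4 values was not tested. Neither MYB3R1 nor MYB3R4 had a named probe set, so the genotype labels were not checked against the targeted genes.

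The tested single-gene probe sets whose 6 centred values came closest to the mean H4 profile were those of AT5G64160, AT2G01870, AT4G10170, AT5G53650 and AT4G02840, at root mean square differences of 0.034, 0.062, 0.078, 0.079 and 0.083 out of 7306 candidates. The level of AT5G64160 was 0.32, 1.10 and 1.26 in wild type and 0.77, 1.26 and 1.26 in the mutant. Nearest to HTB4 were INH3, ARLA1A, SAG101, AT1G30890 and AT4G16060, at 0.061, 0.080, 0.083, 0.085 and 0.089. The H4 probe sets themselves lay 0.13 to 0.24 from their mean profile, and no listed histone was among the 10 genes. With so many candidates and 6 arrays, such matches describe these arrays only.

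**Figure D4:**
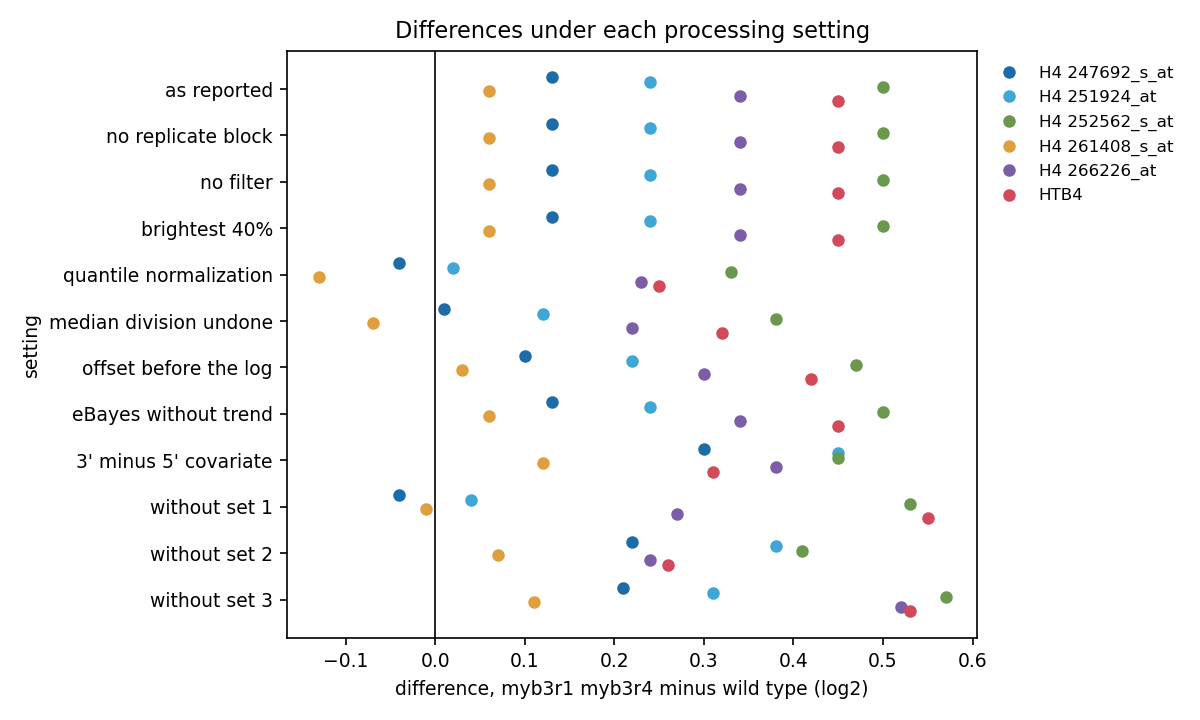
Fitted difference, myb3r1 myb3r4 minus wild type on the log2 scale, of the 5 H4 probe sets and HTB4 (coloured points) under the reported setting and 11 alternatives (vertical axis). Probe sets 252562_s_at, 266226_at, 251924_at and HTB4 stay right of 0 throughout, whereas 247692_s_at and 261408_s_at reach -0.04 and -0.13.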

How the data were processed

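The authors summarised 1 Affymetrix array per sample with MAS5, per the submitters' processing notes; of its version and scaling nothing is stated there. The deposited values are log2 signals with a column median of 0, so each array had been divided by its median, a step seen in the values only. The only stand-in for a signal of 0 was replaced by its array's smallest step. Genes were named from the platform annotation, updated through RefSeq's gene table. The brightest 60% of the 22746 non-control probe sets by overall mean went into limma 3.58.1 (R 4.3.3; lmFit, eBayes with trend; residual degrees of freedom 2, prior 6.79), blocked on the experimental set that the labels name. Arrays of a set deviated together from their genotype means (r = 0.67, 0.28 and 0.62 over probe sets in sets 1 to 3). Set 1 stood apart, with r from -0.61 to -0.28 against arrays of other sets. Sets 2 and 3 were not separated, as wild-type set 2 reached 0.37 with mutant set 3, above its own partner. Wild-type set 3 reached 0.16 with mutant set 2. The fit was tested on data simulated from the fitted model, with changes larger than those of H4 and HTB4, so that test does not cover differences of their size. Members and gene lists were chosen with earlier results of these data known. Named genes were all members, the 3 brightest probe sets of each other core histone, chaperone and replication list, and the 5 single-gene probe sets nearest to H4 and to HTB4. Alternatives covered block, filter, normalization, offset, trend, RNA quality and each set left out.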

Additional observations from a re-analysis of the deposited data

How the results depend on the processing

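None of the 6 H4 and HTB4 probe sets passed in limma under any of the 11 alternatives, and the differences of 252562_s_at, 266226_at, 251924_at and HTB4 stayed above 0 in all of them. The HTB4 difference ranged from 0.25 (quantile normalization) to 0.55 (without set 1, adjusted p = 0.0615); over the alternatives its adjusted p was 0.0615 to 0.739. Without the replicate block the HTB4 difference was again 0.45 (adjusted p = 0.739), and the block changed no call on these probe sets. Probe set 247692_s_at turned to -0.04 with quantile normalization and to -0.04 without set 1, with 0.22 at the highest when each set was left out. Probe set 261408_s_at turned to -0.13 with quantile normalization, to -0.07 with the median division undone and to -0.01 without set 1, with 0.11 at the highest of the sets left out. The H4 median was 0.02 with quantile normalization, 0.119 with the median division undone and 0.041 to 0.31 with each set left out. Undoing the division moved the median of all tested probe sets by -0.124, and relative to that median H4 was at 0.184 as reported, 0.185 with the division undone, 0.031 with quantile normalization and 0.001 without set 1. The cause was not tested. Over all tested probe sets, 72 passed as reported (53 higher, 19 lower), 1 without the replicate block, 14 with no filter, 43 among the brightest 40%, 194 with the control covariate, and 107 to 1107 with each set left out. With the division undone 41 were higher and 33 lower. The brightest 40% holds fewer probe sets, and each set left out leaves 1 residual degree of freedom, as does the control covariate.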
